A study of Homo sapiens with 12 samples.

Results

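The transcripts of 10 genes of the epidermal growth factor receptor (EGFR) family were described in HCT 116p53-/- colorectal cancer cells and in their RPL3 KO subline: 4 receptors (EGFR, ERBB2, ERBB3 and ERBB4) and 6 ligands (AREG, EREG, TGFA, HBEGF, BTC and EGF). The genes were chosen by name, as the family's receptors and the ligands with an EGF domain most often studied in epithelium, out of 60617 gene identifiers in the count files. The rule for them uses no expression value, but earlier results of these data were known when the members and the lists below were chosen.

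The study asked how the loss of uL3, the ribosomal protein encoded by RPL3, alters the transcriptome and its response to actinomycin D (Act D). RNA was sequenced from 4 groups of 3 libraries each: HCT 116p53-/- cells given vehicle CTR, HCT 116p53-/- cells given 5 nM Act D for 24 h, HCT 116p53-/- RPL3 KO cells given vehicle CTR, and HCT 116p53-/- RPL3 KO cells given 5 nM Act D for 24 h. HCT 116 is a human colorectal carcinoma line and all 4 groups share the -/- genotype given in their names. The study's methods describe the RPL3 KO cells as a derived line stably silenced for uL3, so that the comparison of lines is one of 2 cell populations kept apart in culture. Act D binds DNA and at low concentrations inhibits RNA polymerase I, which transcribes ribosomal RNA. The labels call the libraries biological replicates without stating separate cultures, so p-values measure the spread between these libraries, and in bulk RNA fewer cells with a transcript cannot be told apart from less transcript per cell.

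The receptors of this family are membrane tyrosine kinases that pair with each other once a ligand is bound. EGFR binds EGF, TGFA, AREG, EREG, HBEGF and BTC, ERBB4 binds HBEGF, EREG, BTC and the neuregulins, ERBB3 binds neuregulins but has little kinase activity of its own, and ERBB2 has no known ligand and acts as a partner of the others. The ligands are made as membrane precursors that ADAM proteases release, and paired receptors signal through adaptors to the RAS-MAPK and PI3K cascades. In colon epithelium the pathway sustains growth, and AREG and EREG transcripts are measured in colorectal tumours as candidate markers of response to antibodies against EGFR.

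Libraries held 10087925 to 21138886 assigned counts. RPL3 transcripts did not mark the KO: they were read at 1112 to 1151 CPM (counts scaled to a common library size) in the 6 HCT 116p53-/- libraries and at 1132 to 1337 CPM in the 6 libraries labelled RPL3 KO, and the log2 fold change under vehicle was 0.13 (edgeR quasi-likelihood test, adjusted p = 0.155). The second line is therefore called by its label throughout. The lines also differed in cell type markers. Of 16 colon epithelium markers 10 could be tested, and RPL3 KO cells had more of 3 and less of 7, with CDH1 (E-cadherin) at a mean of 66.8 against 0.445 CPM and CDX2, an intestinal transcription factor, at 14.8 against 0.177 CPM under vehicle. CDX1 was at 0 or near 0 in all groups. The summed level of 8 fibroblast markers was 7.78 to 14.6 CPM in HCT 116p53-/- libraries and 68.5 to 84.7 CPM in the others. Of the 4 tested, COL3A1, LUM and PDGFRB were higher and COL1A1 lower in RPL3 KO cells. COL3A1 carried most of the sum, with 57.9 against 0.306 CPM under vehicle, while COL1A1 was at 4.14 against 7.50 CPM and DCN, FAP and THY1 were near 0 in both lines. The 4 endothelial markers summed to at most 2.09 CPM and 5 blood cell markers to at most 0.701 CPM in every library. The part of these differences in the values below was not tested.

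On a scale per transcript length the ligand pool was larger than the receptor pool in both lines. In vehicle-treated HCT 116p53-/- cells the 6 ligands summed to 187 ± 31.2 TPM (transcript abundance per length, mean ± SD, n = 3) and the 4 receptors to 27.2 ± 2.63 TPM. In vehicle-treated RPL3 KO cells the sums were 51.0 ± 3.77 and 9.33 ± 2.85 TPM. TPM levels across libraries carry a further limit: 5 small structural RNAs (RN7SL1, RN7SL2, RN7SK, RPPH1 and RMRP) took 37.4 to 49.4% of all TPM in a library, so the make-up of each pool is given as shares within a library, and changes between groups are tested on counts.

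In HCT 116p53-/- cells under vehicle, AREG (amphiregulin) made up 49.1 ± 1.04% of the ligand TPM and EREG (epiregulin) 42.2 ± 1.27%, followed by TGFA (transforming growth factor alpha) with 6.49 ± 0.350% and HBEGF (heparin-binding EGF-like growth factor) with 1.89 ± 0.153%. BTC (betacellulin) and EGF itself gave 0.203 ± 0.0879% and 0.115 ± 0.0656%, and these neighbours in the order overlapped. In RPL3 KO cells under vehicle the order was different: AREG gave 35.9 ± 0.956%, HBEGF 26.6 ± 1.04%, EREG 21.2 ± 0.182% and TGFA 15.3 ± 1.94%. Upon Act D treatment of RPL3 KO cells HBEGF came first with 39.0 ± 2.43% of the ligand TPM against 27.6 ± 2.85% for AREG, and the shares of the 3 libraries did not overlap.

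Among the receptors, EGFR and ERBB2 had like shares of the receptor TPM in vehicle-treated HCT 116p53-/- cells, 42.0 ± 3.59% and 41.2 ± 2.92%, and their ranges overlapped. ERBB3 gave 16.8 ± 2.48%. Upon Act D treatment of these cells the EGFR share was 23.2 ± 0.742% and the ERBB2 share 59.8 ± 2.76%. In RPL3 KO cells EGFR gave 44.1 ± 4.29% under vehicle and 26.8 ± 5.94% under Act D, and ERBB3 reached 24.0 ± 9.70% and 33.2 ± 6.85% with a wide spread between libraries. ERBB4 had 0 or 1 counts in each of the 12 libraries, below 3 counts, which correspond to 0.150 to 0.348 CPM.

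**Figure D1:**
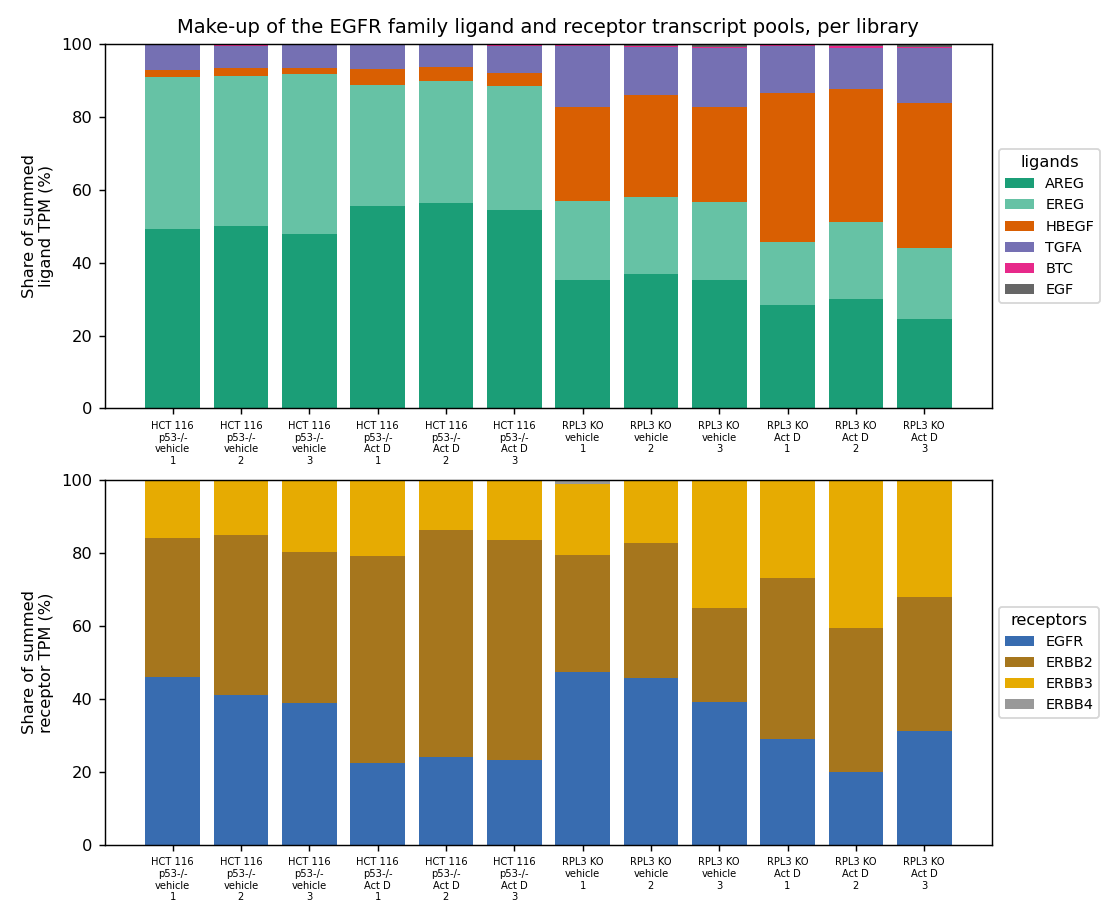
Share in percent (y axis) of each ligand in the summed ligand TPM (top) and of each receptor in the summed receptor TPM (bottom), 1 bar per library, with the line, treatment and replicate on the x axis. AREG and EREG fill most of the ligand bars in HCT 116p53-/- cells, HBEGF takes 26.0 to 27.8% in RPL3 KO vehicle libraries and 36.3 to 41.0% in RPL3 KO Act D libraries, and the EGFR part of the receptor bars is smaller in the Act D libraries of both lines.

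In the HCT 116p53-/- vehicle library that was deposited per transcript, EGFR and 4 ligands were read almost wholly from 1 transcript each. EGFR-201, the full-length transcript, held 99.7% of EGFR counts, AREG-201 held 99.6%, EREG-201 held 99.5%, TGFA-201 held 98.8% and HBEGF-201 held all HBEGF counts. ERBB2 counts were spread over ERBB2-204 with 55.4% and ERBB2-201 with 29.8%, and ERBB3-201 held 76.8% of ERBB3 counts. The 4 EGF counts were split between EGF-206 with 56% and EGF-208, a retained intron, with 44%. This library alone shows the split, so it has no replicate. Reads shared with other genes were few: the posterior SD that RSEM gave for each member's count was at most 0.86 counts in the 11 libraries deposited per gene. EGFR-AS1, antisense within EGFR, had 0 counts in every library, while ERBB2 overlaps PGAP3 and MIEN1 on the opposite strand, which had 21.0 to 85.0 and 196 to 438 counts, and whether counting used strand is not given in the sources used here.

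The starts of the 4 members on which the comparisons below turn are shown by the 250 bases upstream of the start site, from the RefSeq promoter sequences of GRCh38.p14. RefSeq promoters were found for 9 of the 10 members, ERBB3 being the other. Capitals mark matches, on either strand, to TATAAA (the core element called the TATA box), TGACGTCA (cyclic AMP response element), TGAGTCA or TGACTCA (AP-1 site), CCAAT (the box named after these letters) and GGGCGG (GC box), and neighbouring matches can touch or overlap.
AREG, chr4:74444886-74445135, plus strand: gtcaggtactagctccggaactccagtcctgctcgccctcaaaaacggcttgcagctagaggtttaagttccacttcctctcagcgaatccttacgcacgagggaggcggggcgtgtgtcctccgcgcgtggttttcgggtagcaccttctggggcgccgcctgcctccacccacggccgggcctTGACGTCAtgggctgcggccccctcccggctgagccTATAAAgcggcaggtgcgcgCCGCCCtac
EREG, chr4:74364895-74365144, plus strand: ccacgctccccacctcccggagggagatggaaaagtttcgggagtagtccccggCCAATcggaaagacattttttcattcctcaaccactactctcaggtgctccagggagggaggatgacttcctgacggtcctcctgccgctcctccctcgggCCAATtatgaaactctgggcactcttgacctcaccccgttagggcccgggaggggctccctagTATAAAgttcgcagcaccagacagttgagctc
HBEGF, chr5:140346604-140346853, minus strand: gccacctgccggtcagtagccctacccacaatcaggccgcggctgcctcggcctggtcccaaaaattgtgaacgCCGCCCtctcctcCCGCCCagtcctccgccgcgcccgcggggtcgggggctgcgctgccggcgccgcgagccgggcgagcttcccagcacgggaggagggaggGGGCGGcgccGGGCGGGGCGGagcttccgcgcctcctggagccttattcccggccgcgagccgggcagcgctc
EGFR, chr7:55018767-55019016, plus strand: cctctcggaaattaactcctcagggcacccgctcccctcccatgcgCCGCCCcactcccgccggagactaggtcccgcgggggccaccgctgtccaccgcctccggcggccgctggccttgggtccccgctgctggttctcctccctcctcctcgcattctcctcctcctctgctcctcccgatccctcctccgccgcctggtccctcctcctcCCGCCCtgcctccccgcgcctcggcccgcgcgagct

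The AREG and EREG sequences each held a TATA box, at positions -29 to -24 and -32 to -27 from the start site, a match found in 10.7% of 35116 RefSeq promoters over the same window. The HBEGF, ERBB2, ERBB4, BTC and EGF windows and the first of 2 windows listed for TGFA and EGFR held no TATA box match, while the second EGFR window, not printed, held 2. AREG also held a cyclic AMP response element at positions -65 to -58, found in 1.65% of promoters, and EREG held 2 CCAAT boxes, found in 32.0%. HBEGF held 5 GC boxes and EGFR 2, with at least 1 in 42.6% of promoters, and the HBEGF and EGFR windows were 76.4% and 73.6% G or C against 65.2% for AREG and 58.0% for EREG. EGF had an AP-1 site at positions -17 to -11 (4.20% of promoters). These are matches of letters and no measure of binding.

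The first comparison asked how the lines differed under vehicle. AREG, EREG, EGFR, ERBB2, ERBB3 and TGFA were lower and HBEGF and EGF higher in the libraries labelled RPL3 KO. Of the 9 members tested, 8 passed an adjusted p of 0.05, 2 higher and 6 lower, and BTC did not pass. The background was 71.3% of the 15692 genes tested, 35.1% higher and 36.2% lower, so a call alone says little here, and the sizes are the result. ERBB4 was not tested because of its counts.

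EREG was the member that was lower by most under vehicle. This ligand binds EGFR and ERBB4 with low affinity and has a prolonged action. It was read at 512, 417 and 451 CPM in HCT 116p53-/- vehicle libraries and at 82.9, 96.3 and 91.1 CPM in RPL3 KO vehicle libraries. Under Act D the values were 365, 395 and 421 CPM against 81.5, 101.0 and 82.3 CPM. Every HCT 116p53-/- library was above every RPL3 KO library. EREG was 5.10-fold lower in RPL3 KO cells under vehicle (log2 fold change -2.35, SE 0.11; edgeR quasi-likelihood test, adjusted p = 1.17e-12) and 4.47-fold lower under Act D (-2.16, SE 0.11, adjusted p = 5.11e-12).

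AREG, a ligand of EGFR alone, lies 80.0 kb from EREG on chromosome 4 and followed the same order of lines. HCT 116p53-/- vehicle libraries gave 146, 124 and 122 CPM and RPL3 KO vehicle libraries 33.7, 40.5 and 37.3 CPM. Under Act D the values were 148, 162 and 164 CPM against 32.2, 34.3 and 24.7 CPM. The lines were apart under both treatments, by 3.50-fold under vehicle (log2 fold change -1.81, SE 0.11; edgeR quasi-likelihood test, adjusted p = 1.05e-10) and by 5.18-fold under Act D (-2.37, SE 0.12, adjusted p = 5.63e-12).

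HBEGF, like EGF, had the opposite order. It binds EGFR and ERBB4 and holds to heparan sulphate at the cell surface. HCT 116p53-/- vehicle libraries gave 11.6, 10.3 and 8.997 CPM and RPL3 KO vehicle libraries 50.3, 62.5 and 55.8 CPM. Under Act D the values were 23.3, 22.5 and 21.2 CPM against 95.8, 85.5 and 81.0 CPM. The highest HCT 116p53-/- library of either treatment lay below the lowest RPL3 KO library. HBEGF was 5.46-fold higher under vehicle (log2 fold change 2.45, SE 0.12; edgeR quasi-likelihood test, adjusted p = 2.40e-12) and 3.91-fold higher under Act D (1.97, SE 0.11, adjusted p = 2.51e-11).

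The other ligands differed less or had few reads. TGFA, a ligand of EGFR alone, was at 64.4, 52.96 and 56.6 CPM in HCT 116p53-/- and at 46.7, 48.4 and 49.4 CPM in RPL3 KO vehicle libraries. The groups did not overlap, but their nearest libraries were close. The difference was 1.2-fold under vehicle (log2 fold change -0.27, SE 0.09; edgeR quasi-likelihood test, adjusted p = 0.0125) and 1.33-fold under Act D (-0.41, SE 0.09, adjusted p = 0.000591), and without HCT 116p53-/- vehicle library 1 the vehicle difference was -0.18 with an adjusted p of 0.0897. EGF had 4 to 8 counts in HCT 116p53-/- libraries and 13 to 49 in RPL3 KO libraries, a 4.98-fold difference under vehicle (log2 fold change 2.32, SE 0.43; edgeR quasi-likelihood test, adjusted p = 9.81e-05) and a 2.54-fold one under Act D (1.34, SE 0.44, adjusted p = 0.0109). Without HCT 116p53-/- Act D library 1 the latter had an adjusted p of 0.0546. The deposited EGF TPM of the lines overlapped, at 0.09 to 0.29 against 0.16 to 0.48 under vehicle. Under Act D they were 0.08 to 0.37 against 0.14 to 0.35. BTC had 3 to 19 counts per library and its difference of -0.69 under vehicle had an interval of -1.58 to 0.21 on the log2 scale.

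**Figure D2:**
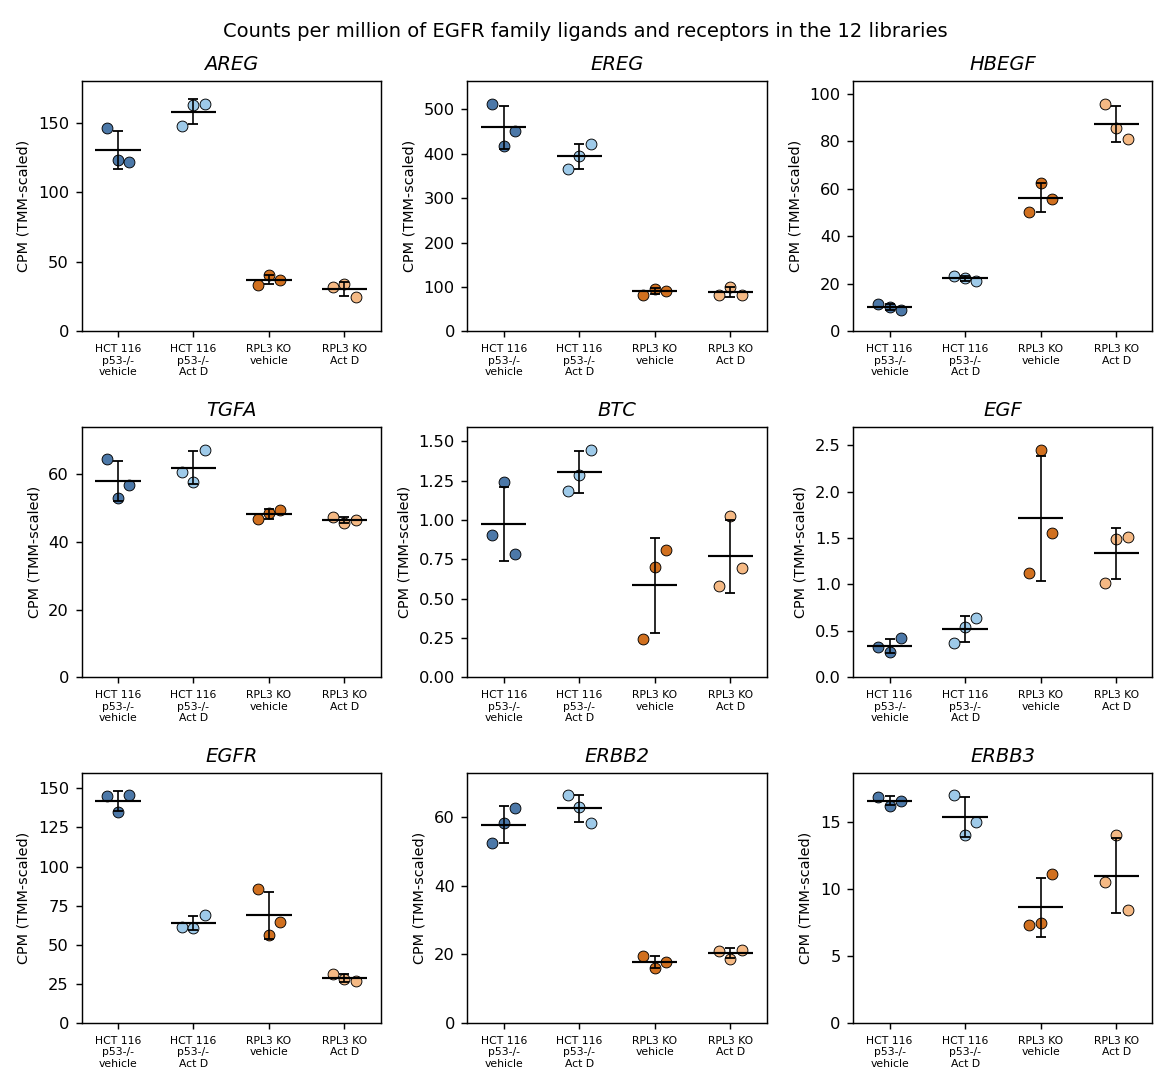
CPM after TMM scaling (y axis, from 0, a scale of its own for each gene) of 9 members in the 4 groups (x axis); points are libraries, horizontal bars the group mean and error bars the SD of 3 libraries. AREG, EREG and ERBB2 points of the RPL3 KO groups lie below all HCT 116p53-/- points, HBEGF points lie above them, and EGFR points are lower under Act D in both lines.

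All 3 receptors that were read were lower in the libraries labelled RPL3 KO. ERBB2, the partner receptor, was at 52.2, 58.3 and 62.7 CPM in HCT 116p53-/- and at 19.5, 16.0 and 17.8 CPM in RPL3 KO vehicle libraries. Under Act D it was at 66.2, 62.9 and 58.1 CPM against 21.1, 18.7 and 21.2 CPM. No library of one line reached the range of the other. The difference was 3.27-fold under vehicle (log2 fold change -1.71, SE 0.10; edgeR quasi-likelihood test, adjusted p = 7.87e-11) and 3.06-fold under Act D (-1.62, SE 0.11, adjusted p = 2.60e-10).

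EGFR was read at 145, 135 and 146 CPM in HCT 116p53-/- and at 85.7, 56.3 and 64.5 CPM in RPL3 KO vehicle libraries. Under Act D it was at 61.7, 60.8 and 69.1 CPM against 31.4, 27.9 and 27.0 CPM. Within each treatment the lines did not overlap, while the HCT 116p53-/- Act D values lay within the range of the RPL3 KO vehicle values. EGFR was 2.07-fold lower in RPL3 KO cells under vehicle (log2 fold change -1.05, SE 0.12; edgeR quasi-likelihood test, adjusted p = 3.50e-07) and 2.21-fold lower under Act D (-1.14, SE 0.13, adjusted p = 3.26e-07).

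ERBB3, the receptor with little kinase activity, was at 16.9, 16.2 and 16.6 CPM in HCT 116p53-/- and at 7.31, 7.46 and 11.1 CPM in RPL3 KO vehicle libraries, a 1.92-fold difference (log2 fold change -0.94, SE 0.17; edgeR quasi-likelihood test, adjusted p = 8.99e-05). Under Act D the HCT 116p53-/- libraries gave 17.0, 14.07 and 15.04 CPM and the RPL3 KO libraries 10.6, 14.05 and 8.46 CPM. The closest libraries of the lines were then almost equal. The difference of -0.48 under Act D (SE 0.18, adjusted p = 0.0209) no longer passed without HCT 116p53-/- Act D library 1 (-0.41, adjusted p = 0.0821), RPL3 KO Act D library 1 (-0.45, adjusted p = 0.0689) or RPL3 KO Act D library 3 (-0.38, adjusted p = 0.0789).

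Under Act D, 8 of the 9 members tested passed again, 2 higher and 6 lower, against a background of 70.4%, 35.1% higher and 35.3% lower. The libraries of the lines did not overlap for 8 members under vehicle, against 72.5% of all genes tested, and for 9 under Act D, against 74.1%. As a position among all genes tested, 7.05% rose further than HBEGF and 7.79% fell further than EREG under vehicle, 10.4% fell further than AREG, 11.1% further than ERBB2, 19.2% further than EGFR and 40.8% further than TGFA. Both line comparisons use separate libraries for each treatment.

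**Figure D3:**
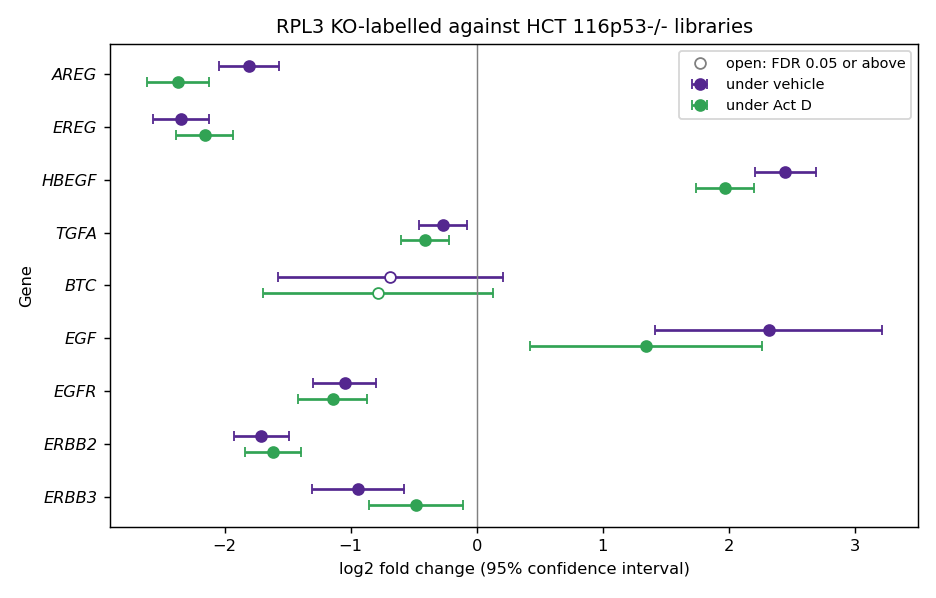
Log2 fold change of the libraries labelled RPL3 KO against HCT 116p53-/- libraries (x axis) for 9 members (y axis), under vehicle and under Act D; points are edgeR estimates, bars their 95% confidence intervals, and open points had an adjusted p of 0.05 or above. EREG at -2.35 and HBEGF at 2.45 mark the ends under vehicle, and each gene has the same sign under both treatments.

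The neuregulins, the ligands of ERBB3 and ERBB4, were the other ligands examined, and NRG1 and NRG4 differed more between lines than any member tested. NRG1 was read at 296, 194 and 259 counts in HCT 116p53-/- vehicle libraries and at 2, 2 and 5.27 counts in RPL3 KO vehicle libraries, a log2 fold change of -6.33 (SE 0.39; edgeR quasi-likelihood test, adjusted p = 8.09e-11). NRG4, which binds ERBB4, was at 1, 3 and 4 counts against 113, 179 and 155 counts (5.72, SE 0.30, adjusted p = 1.01e-11). The lines thus held different neuregulin transcripts. Both genes had few reads in the line where they were lower, so the sizes of these folds are uncertain. Under Act D the differences were -4.13 (SE 0.36, adjusted p = 1.01e-08) for NRG1 and 5.38 (SE 0.30, adjusted p = 2.87e-11) for NRG4. RPL3 KO Act D libraries held 14, 6 and 0 NRG1 counts. Carry-over was read from genes typical of one line, chosen for 0 counts in the vehicle libraries of the other. Their median was 0.668 to 0.882% of the typical line's level in the Act D libraries of HCT 116p53-/- cells (7 genes). It was 0.664 to 1.27% in those of RPL3 KO cells (1 gene). The choice fixes the vehicle libraries at 0%, so vehicle and Act D libraries cannot be compared in this way. NRG2 was higher in RPL3 KO cells at 10 to 19 counts per library against 2 to 5 (log2 fold change 2.29 under vehicle, adjusted p = 0.000296), and EPGN, the neighbour of EREG, and NRG3 had at most 6 counts and were not tested.

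Genes beside the members did not share one direction. At ERBB2 on chromosome 17, GRB7, an adaptor that is often amplified together with ERBB2, was at 4.69 against 0.156 CPM under vehicle (log2 fold change -4.59; edgeR quasi-likelihood test, adjusted p = 3.05e-07). Its RPL3 KO libraries held few reads, at 0 to 0.400 CPM, so the size of that fold is uncertain. STARD3 was higher by 0.58 (adjusted p = 3.82e-05) and MIEN1 differed by -0.21 (adjusted p = 0.106). In the chromosome 4 cluster, PARM1, 138.6 kb from BTC, was at 23.0 against 4.39 CPM (-2.37, adjusted p = 4.64e-10). At HBEGF on chromosome 5, CYSTM1 and PFDN1 were higher by 1.48 (adjusted p = 1.27e-10) and 0.61 (adjusted p = 1.85e-06), and ANKHD1 differed by 0.27 (adjusted p = 0.159). No protein-coding gene tested started within 200 kb of the starts of EGFR and TGFA.

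The second comparison asked how 5 nM Act D changed the members within each line. EGFR fell and HBEGF rose in both lines, and the other members did not pass the test in either. In HCT 116p53-/- cells 2 of 9 members passed, 1 higher and 1 lower, against a background of 18.7% of all genes tested, 7.59% higher and 11.1% lower. In the libraries labelled RPL3 KO 2 of 9 passed, 1 higher and 1 lower, against 11.9%, 3.51% higher and 8.4% lower. Act D and vehicle libraries did not overlap for 3 members in HCT 116p53-/- cells (EGFR, HBEGF and AREG), against 38.2% of all genes tested, and for 2 in RPL3 KO cells, against 27.6%. The HCT 116p53-/- and RPL3 KO responses rest on separate libraries.

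EGFR fell from the vehicle values given above to 61.7, 60.8 and 69.1 CPM in HCT 116p53-/- cells, and all 3 Act D libraries lay below all 3 vehicle libraries. The fall was 2.22-fold (log2 fold change -1.15, SE 0.12; edgeR quasi-likelihood test, adjusted p = 3.21e-06), and 1.87% of the genes tested fell further. EGFR in RPL3 KO cells fell to 31.4, 27.9 and 27.0 CPM, again without overlap, by 2.38-fold (-1.25, SE 0.13, adjusted p = 8.88e-06), and 1.45% of the genes fell further. The responses differed by -0.10 (95% interval -0.46 to 0.27, adjusted p = 0.805).

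HBEGF rose 2.17-fold in HCT 116p53-/- cells, from 8.997 to 11.6 CPM to 21.2 to 23.3 CPM (log2 fold change 1.12, SE 0.12; edgeR quasi-likelihood test, adjusted p = 4.31e-06), and 2.70% of the genes tested rose further. In RPL3 KO cells it rose 1.56-fold, from 50.3 to 62.5 CPM to 81.0 to 95.8 CPM (0.64, SE 0.10, adjusted p = 0.000455), and 6.53% rose further. Act D and vehicle libraries did not overlap in either line. An alternative chosen after seeing the data subtracted carried-over reads from Act D libraries alone, since vehicle libraries could not be assessed. The rise in HCT 116p53-/- cells was then 1.09 (adjusted p = 6.54e-06). The responses differed by -0.48 (95% interval -0.81 to -0.15, adjusted p = 0.0775). This difference passed with DESeq2 (adjusted p = 0.0463), with no filter on low counts (0.0493) and without RPL3 KO vehicle library 1 (0.0383).

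The AREG differences upon Act D had opposite signs in the lines. In HCT 116p53-/- cells its values of 122 to 146 CPM under vehicle and 148 to 164 CPM under Act D differed by 0.27 on the log2 scale (SE 0.11; edgeR quasi-likelihood test, adjusted p = 0.0826), without overlap of the libraries. The RPL3 KO values of 33.7 to 40.5 and 24.7 to 34.3 CPM differed by -0.29 (SE 0.12, adjusted p = 0.126) and overlapped. Neither response passed alone, while the difference of the responses was -0.57 (95% interval -0.90 to -0.23, adjusted p = 0.0407), against a background of 6.53% of all genes tested, 3.30% higher and 3.23% lower. It was the 1 member of 9 past the threshold, and 12 of 19 alternatives put it above 0.05, with adjusted p from 0.00328 to 0.0943.

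The other members gave intervals that included 0 or missed the adjusted threshold. EREG differed upon Act D by -0.22 (95% interval -0.44 to -0.01; edgeR quasi-likelihood test, adjusted p = 0.133) in HCT 116p53-/- and by -0.03 (-0.25 to 0.19, adjusted p = 0.884) in RPL3 KO cells. ERBB2 differed by 0.11 (-0.09 to 0.32) and 0.21 (-0.03 to 0.44), and TGFA by 0.09 (-0.10 to 0.28) and -0.05 (-0.25 to 0.14). ERBB3 differed by -0.11 (-0.46 to 0.24) and 0.35 (-0.04 to 0.74). The intervals of BTC and EGF ran beyond 1 on the log2 scale in at least 1 direction, since they rest on 3 to 49 counts per library.

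**Figure D4:**
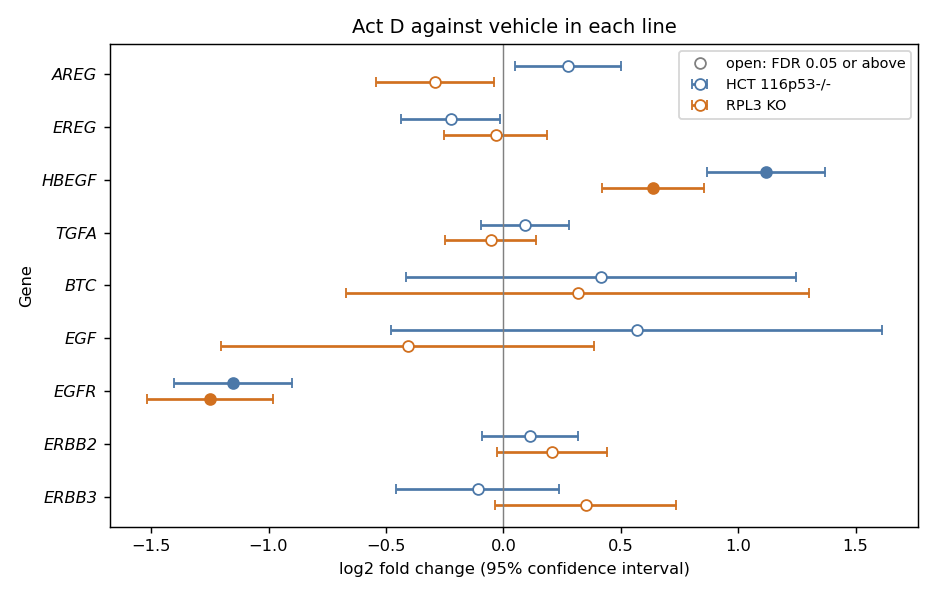
Log2 fold change of Act D against vehicle (x axis) for 9 members (y axis) in each line; points are edgeR estimates, bars their 95% confidence intervals, and open points had an adjusted p of 0.05 or above. EGFR lies at -1.15 and -1.25 and HBEGF at 1.12 and 0.64, and they are the filled points.

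EGFR spans 193 kb of the genome, against 107 kb for TGFA, 101 kb for EGF, 42.5 kb for ERBB2, 26.7 kb for ERBB3, 23.6 kb for EREG, 13.8 kb for HBEGF and 9.87 kb for AREG. Among the 971 tested genes of 150 to 250 kb, 35.2% were lower upon Act D in HCT 116p53-/- cells with a median log2 fold change of -0.26, and 3.19% fell further than EGFR. Of the same genes 15.6% were lower in RPL3 KO cells, the median was -0.02 and 1.96% fell further than EGFR. Of the 7101 genes up to 25 kb, which include AREG, EREG and HBEGF, 10.4% were higher and 4.65% lower in HCT 116p53-/- cells, and 3.8% higher and 4.65% lower in RPL3 KO cells. EGFR thus fell more than nearly all genes of its size class in both lines.

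Some genes had nearly the same pattern as a member over the 4 group means, measured as the root mean square difference of log2 CPM after centring, among 11728 genes. The closest to EGFR were ZNRF3 (0.0898), a ubiquitin ligase that removes Wnt receptors, DERPC (0.0951) and STAG1 (0.130), a cohesin subunit. The closest to HBEGF was RND1 (0.0532), a small GTPase, at 1.98, 3.99, 11.1 and 17.7 CPM in the 4 groups, followed by OPN3 (0.122) and CCN2 (0.122), a matricellular growth factor. PEAR1 (0.0329) and ZNF503 (0.0371) were closest to AREG, CDS1 (0.0427) and SLC30A3 (0.0432) to EREG, CFAP68 (0.0341) to ERBB2, GK5 (0.0234) to ERBB3 and UBE2N (0.0149) to TGFA. These are descriptions over 4 means and carry no test.

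The proteases that release the ligands differed between lines in both directions. Of 10 sheddase genes and regulators tested, 5 were higher and 3 lower in RPL3 KO cells under vehicle, 80% against 71.3% of all genes, with a median of 0.33 on the log2 scale against -0.02 for all genes. ADAM17, the main sheddase of AREG, EREG, HBEGF and TGFA, was at 123 ± 3.45 against 50.9 ± 1.77 CPM (SD, n = 3; log2 fold change 1.27, SE 0.08; edgeR quasi-likelihood test, adjusted p = 6.23e-11). ADAM10, which releases EGF and BTC, was at 52.8 ± 3.48 against 124 ± 10.7 CPM (-1.23, SE 0.09, adjusted p = 8.68e-10), and TIMP3, an inhibitor of ADAM17, was at 94.4 ± 1.14 against 6.03 ± 2.08 CPM (3.97, SE 0.16, adjusted p = 2.04e-13). Act D lowered 3 of the 10 in each line and raised 0, which is 30% called against 18.7% of all genes in HCT 116p53-/- and 11.9% in RPL3 KO cells. In HCT 116p53-/- cells RHBDF2, a carrier of ADAM17 to the surface, fell by 0.69 (adjusted p = 0.00134), with ADAM10 at -0.35 (adjusted p = 0.00966) and TIMP3 at -0.70 (adjusted p = 0.0205). In RPL3 KO cells FRMD8, which binds that carrier, fell by 0.78 (adjusted p = 0.000838), with ADAM17 at -0.30 (adjusted p = 0.0135) and ADAM9 at -0.27 (adjusted p = 0.0409).

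Of 29 adaptors and proximal transducers tested, 11 were higher and 12 lower in RPL3 KO cells under vehicle, 79.3% against 71.3% of all genes, and 10 and 14 under Act D, 82.8% against 70.4%. STAT5B was at 36.6 ± 2.86 against 3.91 ± 0.837 CPM (log2 fold change 3.23, SE 0.14; edgeR quasi-likelihood test, adjusted p = 7.64e-13), PIK3CA, the catalytic PI3K subunit, differed by 1.81 (adjusted p = 2.52e-10), and PLCG2, a phospholipase, was at 1.06 ± 0.275 against 24.1 ± 3.51 CPM (-4.52, SE 0.21, adjusted p = 1.93e-12). Upon Act D 1 of the 29 rose and 6 fell in each line, 24.1% against 18.7% and 11.9% of all genes. This split moved with the scaling. With upper-quartile scaling 1 rose and 5 fell in HCT 116p53-/- cells, and 2 rose and 3 fell in RPL3 KO cells. With scaling by library size alone 0 rose and 7 fell in each line. VAV2, an exchange factor for small GTPases, fell by 1.76 (SE 0.12, adjusted p = 5.41e-08) in HCT 116p53-/- and by 0.64 (SE 0.13, adjusted p = 0.00383) in RPL3 KO cells, and the responses differed by 1.12 (SE 0.18, adjusted p = 0.00127). GRB10, an adaptor that binds receptor tyrosine kinases, fell by 0.78 (adjusted p = 6.88e-05) and 1.36 (adjusted p = 1.27e-06). GAB2, a docking protein, fell from 14.9 ± 1.55 to 6.82 ± 0.941 CPM in HCT 116p53-/- cells (-1.12, adjusted p = 0.000159) and was at 16.7 ± 3.98 and 21.8 ± 2.62 CPM in RPL3 KO cells, with a difference of responses of 1.51 (SE 0.23, adjusted p = 0.00102).

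Among 15 receptor inhibitors tested, 8 were higher and 5 lower in RPL3 KO cells under vehicle, 86.7% against 71.3% of all genes. LRIG1, which promotes loss of EGFR from the surface, was at 22.0 ± 0.246 against 2.69 ± 0.549 CPM (log2 fold change 3.02, SE 0.15; edgeR quasi-likelihood test, adjusted p = 4.83e-12), and PTPRJ, a phosphatase that acts on EGFR, was higher by 1.78 (SE 0.09, adjusted p = 5.57e-12). CBLC, an epithelial ubiquitin ligase, was at 0.105 ± 0.0277 against 17.5 ± 3.16 CPM (adjusted p = 6.90e-13), a level of few reads on which no fold is given. Act D lowered 3 of the 15 in HCT 116p53-/- cells, led by PTPRK at -0.73 (adjusted p = 0.000192), and 6 of the 15 in RPL3 KO cells, led by UBASH3B at -0.76 (adjusted p = 4.18e-05) and RNF41, a ubiquitin ligase of ERBB3, at -0.51 (adjusted p = 0.000894), and raised 0 in either. These are 20% against 18.7% of all genes in HCT 116p53-/- cells and 40% against 11.9% in RPL3 KO cells. With scaling by library size alone 6 and 9 were lower, but that scaling called more of all genes lower too, as given at the end. ERRFI1, the feedback inhibitor MIG6 that binds the EGFR kinase domain, was at 676 ± 64.1 and 498 ± 37.2 CPM in RPL3 KO cells under vehicle and Act D (-0.44, SE 0.10, adjusted p = 0.00525).

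Of 20 genes of receptor endocytosis and sorting, 6 were higher and 8 lower in RPL3 KO cells under vehicle, 70% and so near the 71.3% of all genes. RAB25, an epithelial recycling GTPase, was at 0.0493 ± 0.0432 against 46.5 ± 1.55 CPM (edgeR quasi-likelihood test, adjusted p = 8.38e-15), again too few reads for a fold. The clathrin heavy chain CLTC was lower by 1.11 (adjusted p = 8.43e-10) and the adaptor subunit AP2M1 higher by 1.51 (adjusted p = 8.22e-11). Upon Act D 2 rose and 3 fell in HCT 116p53-/- cells and 1 rose and 3 fell in RPL3 KO cells, 25% against 18.7% and 20% against 11.9% of all genes. With scaling by library size alone 0 rose and 4 fell in HCT 116p53-/- cells, and 0 rose and 6 fell in RPL3 KO cells. EPN2 (epsin), which recruits ubiquitinated receptors to coated pits, fell in both, by 0.66 (adjusted p = 0.000116) and 0.79 (adjusted p = 5.27e-05).

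The 18 MAPK output genes, which are transcribed when ERK is active, leaned one way between lines: 14 were higher and 1 lower in RPL3 KO cells under vehicle, with a median of 1.08 on the log2 scale, and 12 were higher and 2 lower under Act D, with a median of 0.59. With scaling by library size alone the counts were 13 and 2 under vehicle and 10 and 3 under Act D. The share of the 18 called was 83.3% under vehicle, against 71.3% of all genes, 35.1% higher and 36.2% lower. Under Act D it was 77.8%, against 70.4%, 35.1% higher and 35.3% lower. The median of all genes was -0.02 under either treatment. SPRY2, a feedback inhibitor of RAS signalling, was at 106 ± 4.74 against 4.62 ± 0.936 CPM (log2 fold change 4.52, SE 0.15; edgeR quasi-likelihood test, adjusted p = 2.48e-14). ETV5, an ETS transcription factor, was at 124 ± 8.06 against 32.3 ± 2.98 CPM (1.94, SE 0.09, adjusted p = 2.61e-12), and EPHA4, an ephrin receptor, was higher by 2.69 (adjusted p = 7.15e-12). Other genes of the list had closer means under vehicle, with DUSP4 at 150 against 145 CPM and PHLDA1 at 201 against 213 CPM. CCND1 was at 465 against 613 CPM. The activity of ERK was not measured.

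Upon Act D 5 of the 18 MAPK output genes rose and 2 fell in HCT 116p53-/- cells, but 1 rose and 3 fell there when libraries were scaled by their size alone. In RPL3 KO cells 0 rose and 6 fell, and 0 and 8 with that scaling. Among all genes that scaling also gave fewer higher and more lower calls upon Act D, as given at the end. The shares called were 38.9% against 18.7% of all genes and 33.3% against 11.9%. EPHA2, another ephrin receptor, rose from 117 ± 3.77 to 203 ± 9.93 CPM in HCT 116p53-/- cells (log2 fold change 0.79, SE 0.09; edgeR quasi-likelihood test, adjusted p = 4.13e-06) and was at 254 ± 24.8 and 220 ± 12.8 CPM in RPL3 KO cells, and the difference of the responses was -1.001 (SE 0.12, adjusted p = 0.000111). FOSL1, an AP-1 subunit, fell by 0.52 (adjusted p = 0.000339) in RPL3 KO cells, with a difference of responses of -0.69 (adjusted p = 0.00185). CCND1 (cyclin D1) fell in both, by 0.60 (adjusted p = 0.00117) and 0.62 (adjusted p = 0.00157). The difference of the responses passed for 4 of the 18, each with a lower response in RPL3 KO cells, against a background of 3.23% called in that direction.

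**Figure D5:**
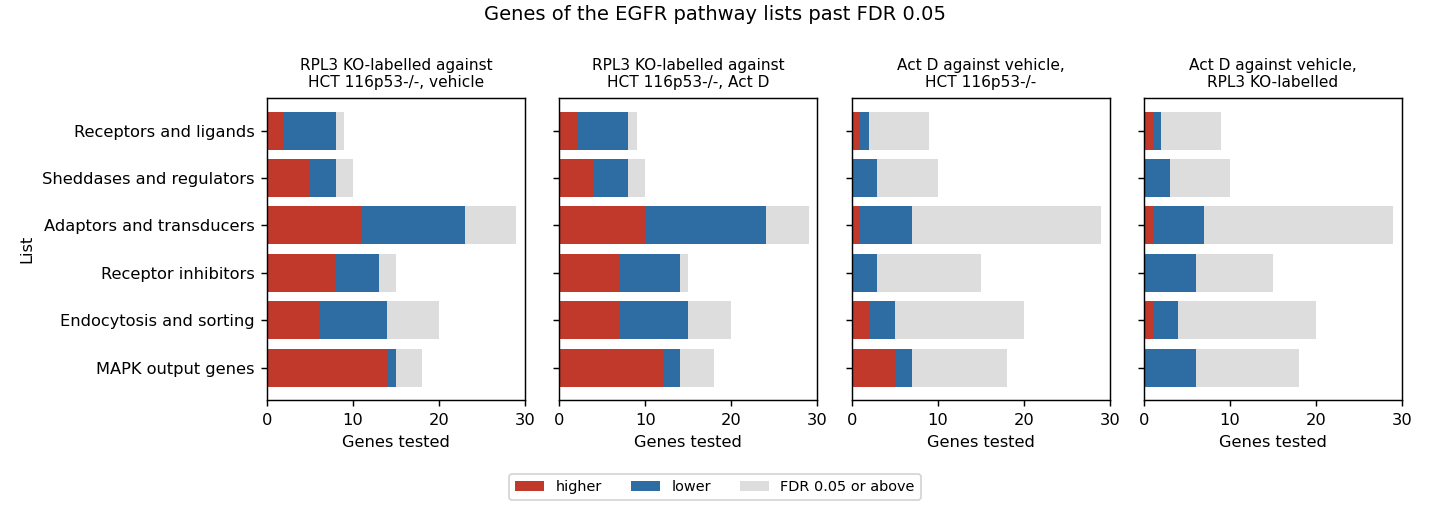
Number of genes tested (x axis) in 6 lists of the EGFR pathway (y axis) that were higher, lower or at an adjusted p of 0.05 or above in the 4 comparisons, by the edgeR quasi-likelihood test. MAPK output genes show 14 higher and 1 lower between lines under vehicle, and upon Act D 0 higher and 6 lower in RPL3 KO cells and 5 higher and 2 lower in HCT 116p53-/- cells, a split that became 1 and 3 with scaling by library size alone.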

How the data were processed

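RNA was sequenced as paired ends (TruSeq RNA, NovaSeq6000) from 12 libraries of 2 lines and 2 treatments. The authors' processing notes name RSEM 1.2.25 and the build hg38, and the study's methods give Ensembl transcripts and genes; the Ensembl release, the aligner and the strand setting are not given in the sources used here. The deposited values per gene are expected counts, TPM (whose sum is fixed in each library) and the posterior SD that the authors' RSEM runs gave for each count, which was handled as a signal that is never negative. HCT 116p53-/- vehicle library 2 was deposited per transcript and was summed per gene. Totals were 10087925 to 21138886 counts per library.

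Expected counts were rounded and analysed in edgeR 4.0.16 (R 4.3.3): filterByExpr by group, TMM scaling, and 1 quasi-likelihood model over all 12 libraries with a coefficient per group. Benjamini-Hochberg adjustment ran over 15692 genes, with calls at an adjusted p under 0.05. CPM are TMM-scaled, and TPM are as deposited. Gene names and spans came from GENCODE v44 (60261 of 60617 identifiers matched). Members and lists were chosen with earlier results of these data known. Named pathway genes are up to 3 per list and comparison with the smallest p among those called at 5 CPM or more in 1 group; others were named after their values were seen. Neighbours were protein-coding genes tested that started within 200 kb of a member's start. Replicate numbers are those of the titles, and the sample descriptions number the RPL3 KO Act D libraries differently. Some genes are not reported here. Scripts were tested on simulated data.

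Alternatives were DESeq2 1.42.0, library-size and upper-quartile scaling, no filter and a filter of 1 CPM in 3 libraries, the likelihood-ratio test, a replicate block, fits on the groups compared alone, leaving out each library, TPM recomputed over the genes tested, and subtraction of carried-over reads.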

Additional observations from a re-analysis of the deposited data

Results flagged for a closer look

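The AREG response to Act D differed between the lines by -0.57 on the log2 scale (95% interval -0.90 to -0.23; edgeR quasi-likelihood test of the difference of responses, adjusted p = 0.0407). The response was 0.27 in HCT 116p53-/- cells and -0.29 in the libraries labelled RPL3 KO. In 3 of 3 HCT 116p53-/- Act D libraries AREG lay above all vehicle libraries of that line, while the RPL3 KO libraries of both treatments overlapped. The difference kept its sign under all 19 alternatives, from -0.69 to -0.48, and 12 of them gave an adjusted p above 0.05.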

How the results depend on the processing

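Of 682 values of members under the alternatives, 656 stayed on their side of the threshold, 17 no longer passed and 9 newly passed. The sign differed for 11 of the 682, of which 0 passed the test. EGFR and HBEGF kept all calls between lines and upon Act D. Between lines, TGFA under vehicle and ERBB3 and EGF under Act D lost their calls without single libraries, as given above. The cause was not tested.

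Leaving out 1 library in turn gave 1833 to 2312 genes called upon Act D in HCT 116p53-/- cells, lowest without Act D library 1 (1833) and library 2 (1949), against 2939; for the difference of responses it gave 614 to 979 against 1025, with 630 and 669 without those libraries and 614 without RPL3 KO Act D library 1. These fits hold fewer samples. Deviations of same-numbered libraries correlated at -0.104 to 0.101 over all pairs of groups. Between vehicle and Act D in HCT 116p53-/- cells they gave 0.031 to 0.101, against -0.099 to 0.054 for unlike numbers. In RPL3 KO cells they gave -0.065 to -0.033, against -0.006 to 0.045. Values this weak cannot tell whether the numbers pair the libraries. The replicate block gave 10964 and 10818 genes called between lines, 2469 and 1502 upon Act D, and 722 for the difference of responses; among members it changed the call of AREG's difference of responses only (-0.57, adjusted p = 0.0607).

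Scaling by library size alone moved the median of all genes between lines to -0.26. It turned the split under vehicle from 5501 higher and 5684 lower to 4202 and 6974, under Act D between lines to 4244 and 6825, and upon Act D to 551 and 2309 in HCT 116p53-/- and 227 and 1858 in RPL3 KO cells. Upper-quartile scaling gave 1480 and 1519 in HCT 116p53-/- cells, 944 and 1012 in RPL3 KO cells, and 595 and 447 for the difference of responses. TPM recomputed over the genes tested left 39 of 40 shares within 1 SD; the ERBB4 share in HCT 116p53-/- vehicle libraries was 0.00543% in place of 0.00%. Subtracting carried-over reads, from Act D libraries alone, gave 2879 genes called. The version planned for genes of at least 50 CPM was not run, since 0 genes met it.

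Depth limits ERBB4, BTC, EGF, NRG2, NRG3 and EPGN, which rest on at most 49 counts per library. It also limits the fold sizes of NRG1 and NRG4, which had few counts in the line where they were lower.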
